A study of Homo sapiens with 6 samples.

Results

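Collagens, laminins and integrins make up much of the matrix around a cell and of the receptors that hold the cell to it. The genes were taken by symbol: COL, a number, A and a number for collagen chains; LAMA, LAMB or LAMC and a number for laminin chains; ITGA or ITGB and a number, plus ITGAV, for integrin subunits. Antisense genes and symbols with other letters, such as ITGA2B, were left out. Of 19676 genes measured, 72 were of these forms, 43 collagens, 10 laminins and 19 integrins. ITGB6 was not counted, because its aligned probe sets name another gene as well. For each gene, the probe set naming that gene alone with the highest mean over 6 arrays was used.

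The cells were A375, an established human melanoma line with a mutated BRAF gene, grown with serum, and every array came from this line. Each of the 6 conditions had 1 Affymetrix array of total RNA. Cells were harvested at 6 h after DMSO (the solvent), after vemurafenib at 10 µM, after AT9283 at 100 nM, or after a combination of the drugs at those doses. A further array each was taken at 16 h for DMSO and for vemurafenib, again at 10 µM. The first drug inhibits mutant BRAF, which drives ERK signalling in such cells, and AT9283 inhibits Aurora kinases and JAK2 among others. The values were array intensities, given here as log2. With 1 array per condition there is no replicate error, and the number of arrays limits the precision. "Rose" and "fell" therefore mark genes over a size rule and not a test. The rule asks for a log2 difference of at least 1, which is 2-fold, and for the brighter of the compared arrays to reach log2 6. Levels under log2 6, the floor, were taken as near background.

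Collagen chains assemble in threes into fibrils, networks or membrane proteins, while laminins are trimers of an alpha, a beta and a gamma chain that found the basement membrane with collagen IV. Integrins are pairs of an alpha and a beta subunit that bind these proteins and link them to the actin skeleton. In melanoma, beta 3 integrin is known as a mark of invasive growth. Probe sets differ in how brightly they bind, so levels of different genes are not set against each other below.

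Median intensity ranged from 19.79 to 21.29 over the arrays, and 44.7% to 46.1% of genes lay at or above the floor. Of 8 melanoma and neural crest markers measured, 5 reached the floor on at least 1 array (SOX10, MITF, CSPG4, MCAM and S100B), while the pigment genes PMEL, MLANA and TYR did not. None of 4 endothelial and 3 leukocyte markers reached it, and of 6 fibroblast markers only PDGFRB did, at most 6.16. Among 5 epithelial markers EPCAM and CDH1 stayed at or below 3.42 and 3.17. KRT14 (7.46 to 9.10) and KRT8 (7.68 to 8.63) lay above the floor on every array, and KRT5 reached it only under vemurafenib at 16 h (6.405). At 16 h, 2 of these 3, KRT14 and KRT5, were over the size rule and higher under vemurafenib, where 5.19% of 9469 genes were. The summed intensity of the epithelial list, in log2, was 10.03 under vemurafenib at 16 h, 9.06 in DMSO at 16 h and 8.75 to 9.04 at 6 h. The part of this list in the 16 h differences below was not tested. The summed levels of the melanoma list ranged from 10.59 to 10.85 and those of the fibroblast list from 7.30 to 7.79.

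Of the 72 genes, 24 lay at or above log2 6 on all 6 arrays, 10 on 1 to 5 arrays, and 38 on none. The 38 genes under the floor on every array were 27 collagens, 3 laminins and 8 integrins, with levels from 1.79 to 5.995. The collagens among them were COL1A2, COL2A1, COL3A1, COL4A3, COL4A4, COL4A6, COL5A3, COL6A2, COL6A5, COL6A6, COL8A1, COL8A2, COL9A1, COL10A1, COL11A1, COL11A2, COL14A1, COL15A1, COL18A1, COL19A1, COL20A1, COL22A1, COL23A1, COL24A1, COL25A1, COL26A1 and COL28A1. The laminins were LAMA2, LAMB4 and LAMC3, and the integrins ITGA1, ITGA7, ITGA8, ITGA9, ITGA10, ITGA11, ITGB2 and ITGB7. None of these 38 could pass the size rule. Their differences ran from -0.48 to 0.39 for vemurafenib at 6 h and from -1.58 to 0.53 at 16 h. At 16 h COL8A1 (-1.58) and the collagen receptor subunit ITGA1 (-1.05) were past the size of 1 without reaching the floor.

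The question of the vemurafenib arrays is how genes respond when BRAF is inhibited. After 16 h, 6 of the 72 genes fell (COL13A1, COL6A3, ITGB3, ITGA2, ITGA6 and ITGB5) and 4 rose (ITGB8, COL21A1, COL9A2 and COL4A5). These counts are out of 33 members with an array at the floor in that pair. Over all 9469 genes at the floor, 5.79% fell and 5.19% rose. The 33 members had a median difference of 0.11, against -0.0003 for the 9469 genes. COL21A1, COL9A2, COL4A5 and LAMB2 reached the floor only on the vemurafenib array at 16 h, where they are high, so this median says nothing of the members as a group. Over the 26 members with a mean of log2 6 or more across the 6 arrays it was 0.004, against -0.03 for 8885 genes chosen alike. The 10 members over the rule became 5 with a floor of log2 7, and likewise 5 with the mean of all probe sets or when those the array's naming marks as shared were left out. After 6 h, 2 members fell (COL13A1 and ITGA2) and 1 rose (ITGB8) out of 29 at the floor, where 2.14% of 9095 genes fell and 1.03% rose. The median at 6 h was -0.18, against 0.02 for all genes. COL16A1, COL7A1, ITGB3 and ITGB4 reached the floor in this pair only in DMSO, where they are high, which pulls this median down. Over the 26 members chosen by their mean level it was -0.14, against 0.02 for the 8885 genes. With 32 added to each intensity 1 of the 3 members over the rule at 6 h remained, COL13A1, and with the mean of all probe sets 0. Over all genes 94 rose and 195 fell at 6 h, which became 58 and 136, and 57 and 129. In bulk RNA, fewer cells with a transcript and less of it per cell cannot be told apart.

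**Figure D1:**
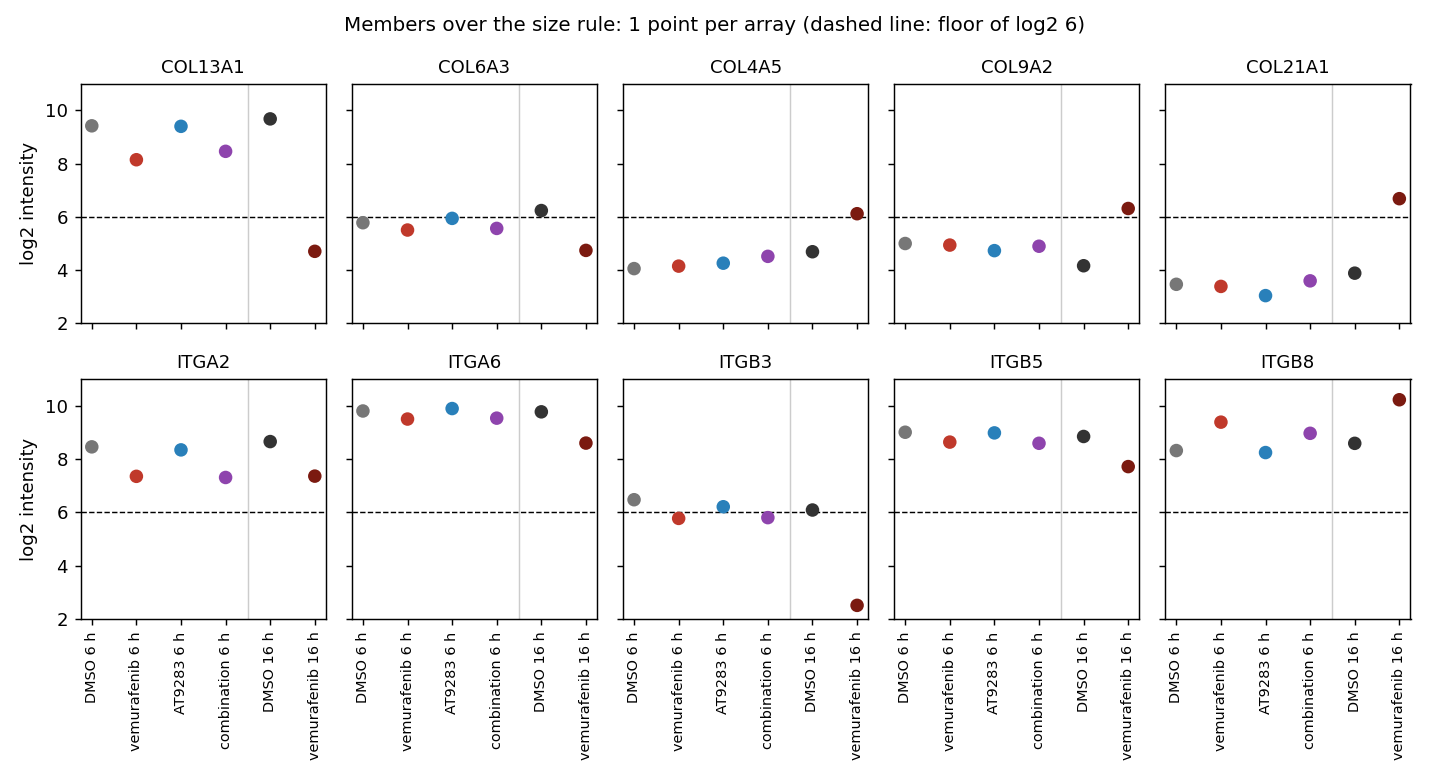
Log2 intensity of the 10 genes over the size rule in any of the comparisons, 1 point per array, with the 6 h arrays left and the 16 h arrays right of the grey line and the floor of log2 6 dashed. COL13A1 lies between 8.14 and 9.68 on 5 arrays and at 4.71 under vemurafenib at 16 h, and ITGB8 is highest there, at 10.22.

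Among the collagens COL13A1 had the lowest difference. It encodes collagen XIII, a collagen anchored in the cell membrane and found at sites of adhesion. Its level was 9.42 in DMSO, 8.14 under vemurafenib, 9.40 under AT9283 and 8.46 in the combination at 6 h, and 9.68 in DMSO and 4.71 under vemurafenib at 16 h. The 3 vemurafenib arrays were thus the lowest, and the one at 16 h lay below the floor. The log2 difference was -1.27 at 6 h, a 2.42-fold fall, and -4.97 at 16 h, a 31.4-fold fall whose size depends on a value near background. With 32 added to each intensity the 16 h value was -3.87. Averaged over all probe sets it was -2.70, and the 6 h value -0.92, under the rule. All 3 probe sets fell at 16 h, by between -4.97 and -1.46.

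COL6A3 encodes a chain of collagen VI, which forms beaded microfibrils. It stood at 5.78, 5.50, 5.94 and 5.57 on the 6 h arrays for DMSO, vemurafenib, AT9283 and the combination, and at 6.24 and 4.74 on the 16 h arrays for DMSO and vemurafenib. Only DMSO at 16 h reached the floor. The 16 h difference was -1.50, which with 32 added to each intensity became -0.87, under the rule. COL6A1, a second chain of collagen VI, lay between 9.31 and 9.53 on all arrays and differed by -0.13 and -0.15 at 6 h and 16 h.

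The 3 collagen genes that rose were under the floor on 5 arrays and reached it under vemurafenib at 16 h. COL21A1, a collagen that associates with fibrils, was at 3.47, 3.39, 3.04 and 3.60 on the 6 h arrays in the same order, at 3.89 in DMSO at 16 h and at 6.68 under vemurafenib. COL9A2, a chain of collagen IX, which coats cartilage fibrils, was at 5.00, 4.94, 4.73 and 4.90 at 6 h, and at 4.16 and 6.31 at 16 h. COL4A5, a collagen IV chain that joins with other minor chains, was at 4.06, 4.15, 4.26 and 4.52 at 6 h, and at 4.69 and 6.12 at 16 h. In each gene the vemurafenib array at 16 h was the highest of the 6. The 16 h differences were 2.80 for COL21A1, 2.15 for COL9A2 and 1.43 for COL4A5, and the 6 h differences -0.08, -0.06 and 0.09. All 3 rises start from values near background. With 32 added to each intensity they were 1.53, 1.16 and 0.81, the last under the rule. The other probe sets of COL9A2 (0.00) and COL4A5 (0.24) lay below the floor on both 16 h arrays, and averaged over its probe sets each gene was under the rule (1.07 with both arrays below the floor, and 0.83). COL9A2 also differed by -0.83 between the DMSO arrays, lower at 16 h.

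The other collagens at the floor did not pass the size rule in any comparison. Nearest to it were COL27A1, a fibrillar collagen, with -0.97 at 6 h and -0.66 at 16 h, and COL9A3, another collagen IX chain, with 0.30 and 0.93. COL27A1 was at 7.47 in DMSO, 6.49 under vemurafenib, 7.49 under AT9283 and 6.88 in the combination at 6 h, and at 7.14 and 6.48 at 16 h, so that the 3 arrays with vemurafenib were the lowest. COL9A3 was at 9.03, 9.33, 9.05 and 9.25 at 6 h, and at 9.18 and 10.12 at 16 h. The fibrillar chains COL1A1, COL5A1 and COL5A2 differed by 0.20, -0.02 and 0.18 at 6 h and by 0.01, 0.41 and 0.57 at 16 h. COL12A1, which binds along fibrils, differed by 0.37 and 0.48. COL16A1, which binds along fibrils too, lay between 5.43 and 6.01 over the arrays and differed by -0.57 and 0.09. COL7A1, whose product anchors the epidermis to the dermis, lay between 5.67 and 6.17 and differed by -0.50 and 0.26.

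The chains of the common collagen IV network, COL4A1 and COL4A2, differed in the same direction at both times. COL4A1 was at 9.77 in DMSO, 9.46 under vemurafenib, 9.72 under AT9283 and 9.40 in the combination at 6 h, and at 9.47 and 8.85 at 16 h. COL4A2 was at 10.12, 9.97, 10.13 and 9.84 at 6 h, and at 10.02 and 9.64 at 16 h. For both genes the 6 h arrays with vemurafenib lay under those without it, by -0.31 and -0.15 for vemurafenib alone, and the 16 h differences were -0.61 and -0.38. None of these reached the size rule, and the DMSO arrays themselves differed by -0.30 and -0.10, lower at 16 h. Every probe set of COL4A1 and COL4A2 at the floor had a negative vemurafenib difference, at 6 h and at 16 h.

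The promoter windows below are shown for the genes over the size rule at both times and for this collagen IV pair. They come from RefSeq on GRCh38.p14, run 5′ to 3′ on the gene's strand and cover 250 bases before the start site and 50 after it. Capitals mark matches on either strand to any of 5 motifs. They are TGANTCA for the AP-1 site, GGGCGG for the GC box, the letters of the CCAAT box itself, TATAAA for the box of that kind, and CCGGAAG for the ETS site.
COL13A1, chr10:69801656-69801955, plus strand: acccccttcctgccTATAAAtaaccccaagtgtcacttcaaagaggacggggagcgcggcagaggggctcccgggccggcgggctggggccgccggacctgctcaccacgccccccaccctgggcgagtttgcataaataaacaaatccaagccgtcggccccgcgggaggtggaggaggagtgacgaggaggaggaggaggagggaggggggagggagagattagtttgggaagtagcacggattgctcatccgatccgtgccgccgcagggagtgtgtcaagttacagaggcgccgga
ITGA2, chr5:52989102-52989401, plus strand: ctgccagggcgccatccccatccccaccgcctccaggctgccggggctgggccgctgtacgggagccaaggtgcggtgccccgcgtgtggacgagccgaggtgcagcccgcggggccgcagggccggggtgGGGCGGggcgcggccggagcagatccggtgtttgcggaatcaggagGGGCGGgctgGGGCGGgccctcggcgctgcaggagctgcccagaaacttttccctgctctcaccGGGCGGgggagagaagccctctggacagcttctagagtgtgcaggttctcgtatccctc
ITGB8, chr7:20330650-20330949, plus strand: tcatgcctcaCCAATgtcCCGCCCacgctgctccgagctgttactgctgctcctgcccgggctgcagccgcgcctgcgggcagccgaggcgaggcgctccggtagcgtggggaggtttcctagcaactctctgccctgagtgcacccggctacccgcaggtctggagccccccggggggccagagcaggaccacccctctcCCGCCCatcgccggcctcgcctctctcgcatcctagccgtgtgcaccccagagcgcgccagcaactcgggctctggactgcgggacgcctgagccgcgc
COL4A1, chr13:110307108-110307407, minus strand: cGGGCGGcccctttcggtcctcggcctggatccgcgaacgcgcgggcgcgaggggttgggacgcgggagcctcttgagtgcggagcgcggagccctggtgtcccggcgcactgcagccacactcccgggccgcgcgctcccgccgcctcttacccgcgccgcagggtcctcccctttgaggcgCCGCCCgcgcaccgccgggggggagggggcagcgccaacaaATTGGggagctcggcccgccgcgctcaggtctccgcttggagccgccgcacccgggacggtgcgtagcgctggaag
COL4A2, chr13:110307034-110307333, plus strand: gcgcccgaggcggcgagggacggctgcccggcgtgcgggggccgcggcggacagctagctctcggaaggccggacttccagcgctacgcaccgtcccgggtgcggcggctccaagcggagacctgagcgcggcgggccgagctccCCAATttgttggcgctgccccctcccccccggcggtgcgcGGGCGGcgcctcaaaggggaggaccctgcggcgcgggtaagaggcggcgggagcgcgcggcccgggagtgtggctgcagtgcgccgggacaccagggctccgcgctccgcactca

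COL4A1 and COL4A2 are transcribed away from each other, with 127 bases between their start sites, so that 226 bases of the printed windows are the same DNA read on opposite strands. The CCAAT box at -26 for COL4A1 and at -105 for COL4A2 is thus 1 site, and so is the GC box at -67 and -65. The ITGA2 window held 4 GC boxes, that of ITGB8 2 GC boxes and a CCAAT box, and that of COL13A1 a TATAAA from -236 to -231, counted from the start site. Promoters were listed for 52 of the 72 genes, 26 of the 34 at the floor and 9 of the 10 over the size rule, with the first start site taken where several were listed. Among 15306 promoters of measured genes 58.9% held a GC box, 36.1% a CCAAT box, 14.4% the ETS letters, 8.8% TATAAA and 5.8% the AP-1 letters. Of the 9 promoters over the rule 6 held a GC box, 2 a CCAAT box, 2 TATAAA, 1 the ETS letters (ITGB5) and 0 the AP-1 letters. A match is a run of letters and says nothing of binding.

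No laminin gene passed the size rule in any comparison, of 7 that reached the floor. The largest shares over all genes were those for vemurafenib at 16 h, where 5.79% of 9469 genes fell and 5.19% rose. A count of 0 among 7 is near these shares and says little of laminins. LAMA1, an alpha chain of early basement membranes, was at 6.37, 6.30, 6.68 and 6.47 on the 6 h arrays for DMSO, vemurafenib, AT9283 and the combination, and at 6.21 and 7.15 at 16 h, a difference of 0.94. LAMB2, a beta chain, lay below the floor on 5 arrays (5.54 to 5.85) and at 6.46 under vemurafenib at 16 h, 0.85 above DMSO. LAMA4 differed by 0.06 and 0.37 and LAMA5 by -0.50 and 0.33 at 6 h and 16 h. LAMB3, the beta chain of the laminin of skin, differed by -0.42 and 0.20. LAMB1 and LAMC1, chains of many widely made laminins, lay between 10.02 and 10.60 and between 10.11 and 10.40. They differed by -0.21 and -0.18 at 6 h and by 0.00 and -0.12 at 16 h. Without LAMB2, which reached the floor on 1 array only, the 6 other laminins had a median difference of -0.19 at 6 h and of 0.27 at 16 h.

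Integrins held the other 5 genes that passed the rule. ITGA2, the alpha subunit of the collagen receptor alpha 2 beta 1, was at 8.46 in DMSO, 7.35 under vemurafenib, 8.34 under AT9283 and 7.31 in the combination at 6 h, and at 8.65 in DMSO and 7.36 under vemurafenib at 16 h. All arrays with vemurafenib lay between 7.31 and 7.36 and all without it between 8.34 and 8.65. It fell by 1.11 at 6 h and by 1.30 at 16 h. A second probe set of ITGA2, near the floor, differed by -0.18 and -0.59. On it vemurafenib at 16 h (5.91) lay above DMSO (5.79) and AT9283 (5.56) at 6 h, so the arrays with and without vemurafenib overlapped. Averaged over both probe sets, the gene lay under the rule at both times (-0.64 and -0.94). With 32 added to each intensity the 6 h value was -0.97, also under it.

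ITGA6 is the alpha subunit of laminin receptors, paired with beta 1 or beta 4. Its levels were 9.80, 9.50, 9.89 and 9.53 on the 6 h arrays for DMSO, vemurafenib, AT9283 and the combination, and 9.77 and 8.60 on the 16 h arrays. The vemurafenib array at 16 h was the lowest, with a difference of -1.17 after -0.30 at 6 h. Both of its probe sets fell at 16 h, by -1.58 and -1.17. ITGA3, the alpha subunit of another laminin receptor, differed by -0.21 and -0.61.

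The beta subunits that pair with alpha V did not go the same way. ITGB3, whose pair with alpha V binds vitronectin, was at 6.47, 5.77, 6.21 and 5.80 on the 6 h arrays in the same order, and at 6.08 in DMSO and 2.51 under vemurafenib at 16 h. The difference was -0.70 at 6 h and -3.58 at 16 h. It depends on a vemurafenib value far below the floor and became -1.41 with 32 added to each intensity. No other of its 7 probe sets reached the floor in that pair. The mean over all was -0.88, and without the shared probe sets the difference was -0.17, both under the rule.

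ITGB5, the beta subunit of a second vitronectin receptor, was at 9.00, 8.63, 8.98 and 8.59 at 6 h, and at 8.85 and 7.71 at 16 h, differences of -0.37 and -1.13. Of its 4 probe sets 2 were at the floor at 16 h, with -1.13 and -0.97. Without shared probe sets ITGB5 differed by -0.89, with both arrays below the floor (5.07 and 4.18), so that the rule could not be met. ITGB8, whose pair with alpha V binds latent TGF-beta, was at 8.32, 9.38, 8.24 and 8.96 at 6 h, and at 8.59 and 10.22 at 16 h. All 3 arrays with vemurafenib lay above the 3 without it. The rise was 1.07 at 6 h, 2.09-fold, and 1.64 at 16 h, 3.11-fold, and a second probe set at the floor rose by 2.25 at 16 h. Its 3 other probe sets lay below the floor at 16 h, with differences of 1.58, 0.28 and 0.27. Averaged over all 5 the 16 h difference was 1.20 with both arrays below the floor, so that the rule was not met. The 6 h value was under the rule against the average of the DMSO arrays (0.93), with 32 added to each intensity (0.996) and over all probe sets (0.69). ITGAV itself lay between 9.37 and 9.65 on all arrays and differed by 0.18 and 0.27.

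Other integrins at the floor were closer to no difference. ITGB1, the common partner of the alpha subunits that bind collagen and laminin, lay between 11.41 and 11.61 and differed by 0.09 and 0.11. The fibronectin receptor subunits ITGA5 and ITGA4 differed by -0.11 and -0.04 at 6 h and by -0.33 and -0.21 at 16 h. ITGB4, the laminin receptor subunit of hemidesmosomes, lay between 5.79 and 6.33 and differed by -0.36 and 0.18.

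**Figure D2:**
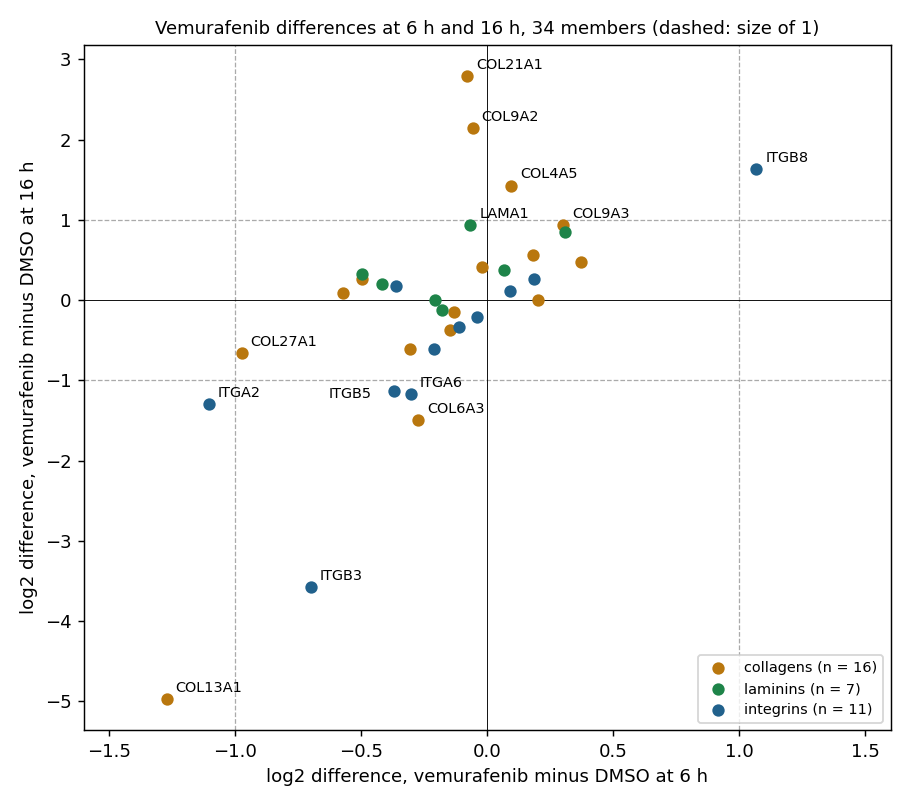
Log2 difference of vemurafenib minus DMSO at 6 h (horizontal axis) and at 16 h (vertical axis) for the 34 genes at the floor on at least 1 array, coloured by family, with the size of 1 dashed. COL13A1 and ITGA2 lie past -1 and ITGB8 past 1 on both axes, while COL21A1, COL9A2 and COL4A5 lie high at 16 h and near 0 at 6 h.

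The vemurafenib differences at the 2 times share no array. Of 28 members at the floor in both pairs, 13 were lower at both times, 8 higher at both and 6 opposite, with 1 at 0. The share with the same sign was 75.0%, near the 73.7% of all 8913 genes at the floor in both. The 6 opposite ones were COL5A1, COL7A1, LAMA1, LAMA5, LAMB3 and ITGB4, none of them over the size rule. From 6 h to 16 h the difference of COL13A1 moved by -3.70, that of ITGB3 by -2.88, that of COL6A3 by -1.22 and that of ITGA6 by -0.87. It moved by -0.19 for ITGA2 and by 0.57 for ITGB8. The difference of COL21A1 moved by 2.88 and that of COL9A2 by 2.21.

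A limma fit of vemurafenib against DMSO over the 4 arrays, blocked by time, tested 34 members, and 1 of them, ITGA2, was called at an adjusted p under 0.05. At an unadjusted p under 0.05 there were 10 (29.4%), against 22.2% of all genes tested. Over all 9651 genes tested, 0.839% were called lower and 0.332% higher. ITGA2 was lower by -1.20 (SE 0.14, limma adjusted p 0.0459). ITGB8 was higher by 1.35 (SE 0.20, limma adjusted p 0.0756) and COL27A1 lower by -0.82 (SE 0.15, limma adjusted p 0.107). For COL13A1, at -3.12 (SE 0.88), the limma adjusted p was 0.172, and for ITGB3, at -2.14 (SE 0.75), it was 0.214. This fit has 1 residual degree of freedom, namely how far the 6 h and 16 h differences lie apart, so its SE is no replicate error. The call of ITGA2 was lost under 6 of 12 alternative settings, among them a floor of log2 5 and the mean of all probe sets.

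AT9283 alone put 0 of 29 members at the floor over the size rule at 6 h, where 0.0224% of 8938 genes rose and 0% fell. Differences of the 29 ran from -0.40 to 0.32, with a median of 0.01 against 0.02 for all genes. COL7A1 and ITGB4 stood lowest of these (-0.40 each), and LAMA1 (0.32) and COL12A1 (0.29) highest. COL7A1, ITGB4 and COL16A1 reached the floor in this pair only in DMSO, where they are high, which pulls the low end down. For the 26 members with a mean of log2 6 or more across the 6 arrays the median was 0.02, against 0.01 for 8885 genes chosen alike. ITGA2, ITGB8 and COL13A1 differed by -0.11, -0.07 and -0.02. The DMSO arrays, which hold no drug but differ in time, gave 0 of 30 members over the rule, from -0.42 to 0.46. Over 9055 genes 0.188% were higher at 16 h and 0.0883% lower. The ends of the range, COL7A1 and COL6A3, each reached the floor only on the array of this pair where they are high. LAMA5 (-0.40) and LAMA4 (0.42), at the floor on both arrays, came next.

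The combination relative to DMSO at 6 h had 1 member over the size rule, ITGA2, which fell by 1.15, out of 29 at the floor. Over 9076 genes 1.93% fell and 0.639% rose. The median was -0.21, against 0.05 for all genes. COL16A1, COL7A1, ITGB3 and ITGB4 reached the floor in this pair only in DMSO, where they are high, which pulls this median down. For the 26 members with a mean of log2 6 or more across the 6 arrays it was -0.15, against 0.05 for 8885 genes chosen alike. With the mean of all probe sets ITGA2 stood at -0.83, under the rule. COL13A1 differed by -0.96, ITGB3 by -0.67, COL27A1 by -0.58 and ITGB8 by 0.65, all under the rule. Because vemurafenib alone and the combination share their DMSO array, their values are only given side by side: -1.27 and -0.96 for COL13A1, -1.11 and -1.15 for ITGA2, 1.07 and 0.65 for ITGB8.

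Set directly against vemurafenib alone at 6 h, the combination had 0 of 25 members over the rule, where 0.322% of 8999 genes were lower and 0% higher. The 25 differences ran from -0.42 for ITGB8 to 0.39 for COL27A1, with a median of -0.04 against 0.03 for all genes. COL13A1 differed by 0.32, COL5A2 by -0.27 and ITGA5 by -0.26. ITGA2 (-0.04), ITGA6 (0.03) and ITGB5 (-0.04) lay near 0. ITGB3, below the floor on both arrays and so not among the 25, differed by 0.03. With 1 array each, a difference of this size cannot be told from array error.

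**Figure D3:**
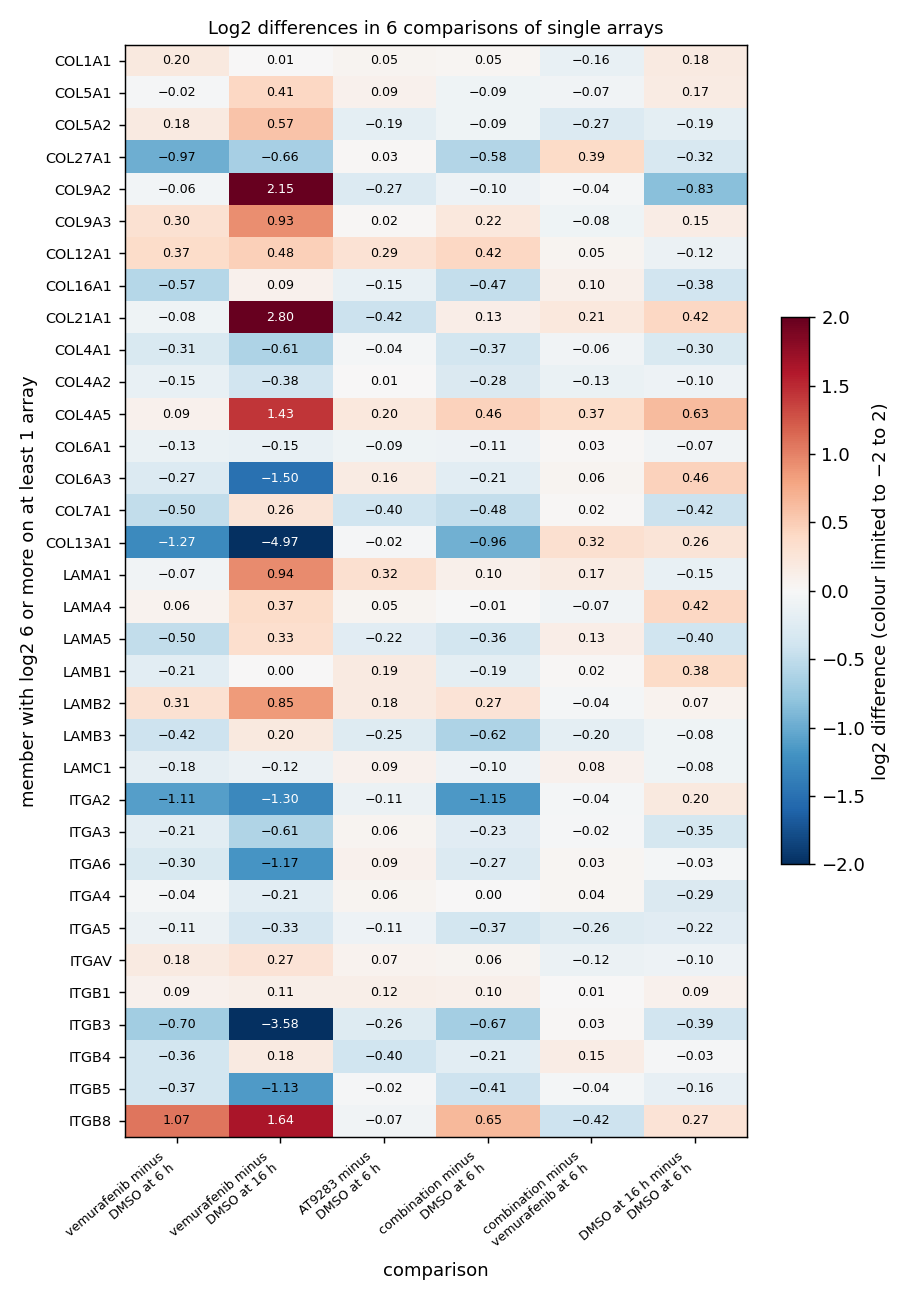
Log2 differences of the 34 genes at the floor on at least 1 array in the 6 comparisons, in colour (limited to -2 to 2) with the value printed in each cell. The vemurafenib column at 16 h holds the strongest colours, from -4.97 for COL13A1 to 2.80 for COL21A1, while the AT9283 column lies between -0.42 and 0.32.

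Most members with more than 1 probe set at the floor had no opposite signs among them. These probe sets are read on the same arrays, and the share over all genes was not computed. At 16 h, 13 members had more than 1 probe set at the floor, and 2 of them, COL5A1 and LAMC1, had both signs. LAMB1, with a probe set at 0.00, was not counted as having both. At 6 h it was 3 of 12 (COL6A1, ITGB1 and LAMA4).

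**Figure D4:**
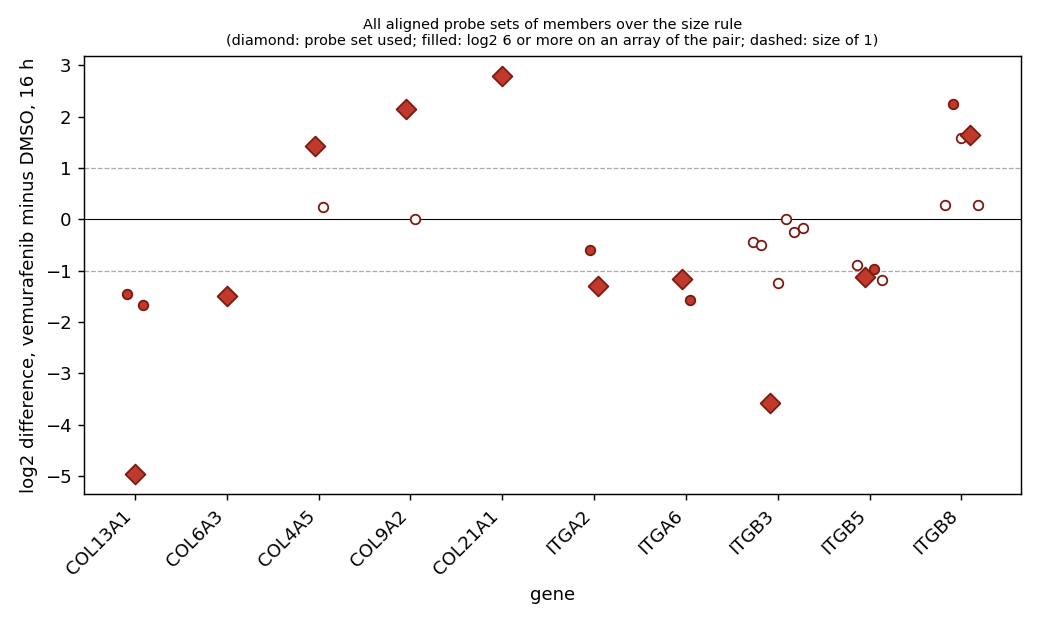
Log2 difference of vemurafenib minus DMSO at 16 h for every aligned probe set of the 10 genes over the size rule, with diamonds for the probe set used, filled symbols for probe sets at the floor on an array of the pair and the size of 1 dashed. The filled symbols of each gene lie on 1 side of 0. The open ones of ITGB3, COL9A2, COL4A5 and ITGB8 lie nearer to 0 than the gene's diamond, and those of ITGB5 on either side of it.

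Genes that work with these families were followed as lists. Of 20 other matrix proteins measured, 14 were at the floor at 16 h and 3 fell and 5 rose under vemurafenib. Over all 9469 genes at the floor in that pair, 5.79% fell and 5.19% rose. The matricellular proteins CCN2 (-3.51) and CCN1 (-2.79), which bind integrins, and THBS1 (-1.08) fell. POSTN (1.84), BGN (1.47), SPP1 (1.38), EFEMP1 (1.23) and FBN1 (1.21), the last the main protein of fibrillin microfibrils, rose. The median of the 14 was 0.42, against -0.0003 for all genes, and POSTN and BGN reached the floor in this pair only under vemurafenib. CCN2 reached it only in DMSO (8.96, and 5.45 under vemurafenib), so the size of its fall depends on a value near background. At 6 h CCN2 fell by 1.77 under vemurafenib, where 2.14% of all genes fell. In the combination CCN2 fell by 2.94, with CCN1 at -1.35, where 1.93% of all genes fell. CCN2 lay 1.16 lower in the combination than under vemurafenib alone.

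The integrin adhesion machinery, which links the receptors to actin, had 15 of 22 genes at the floor at 16 h. ACTN1 (-1.42), PXN (-1.38) and FERMT1 (-1.01), which encode alpha-actinin, paxillin and a kindlin, fell and 0 rose, where 5.79% of all genes fell and 5.19% rose. The list median was -0.29, against -0.0003 for all genes. At 6 h none of 15 at the floor passed the rule, where 2.14% of all genes fell and 1.03% rose. Of 19 enzymes and chaperones of collagen synthesis, 14 were at the floor at 16 h. The procollagen protease ADAMTS3 fell there (-1.13) and 0 rose, where 5.79% of all genes fell and 5.19% rose. The median of the 14 was -0.02, against -0.0003 for all genes. ADAMTS3 reached the floor in this pair only in DMSO (6.88, and 5.75 under vemurafenib). DDR2, a collagen receptor kinase, rose by 1.27 at 6 h and by 1.73 at 16 h. Of 6 other collagen and laminin receptors at the floor, it alone passed the rule in these pairs. Over all genes 1.03% rose at 6 h and 5.19% at 16 h, and 1 of 6 says little of these receptors. AT9283 put 0 genes of these 4 lists over the rule, where 0.0224% of all genes rose and 0% fell. The limma fit called 0 genes of the lists, where 0.332% of all genes were called higher and 0.839% lower. Counts of 0 are near these shares. In the fit 6 of 14 matrix, 8 of 15 machinery, 1 of 14 enzyme and 4 of 6 receptor genes had an unadjusted p under 0.05, against 22.2% of all genes.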

How the data were processed

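Total RNA of A375 cells was measured on 6 Affymetrix arrays, 1 per condition. The authors deposited a linear intensity for each probe set. RMA is the only tool named, per the submitters' processing notes, with the version not given in the sources used here. Background is estimated by a model in it, so values near it are uncertain. Genes were named through the platform's annotation, where 41097 of 54675 probe sets had 1 symbol, 1801 several and 11777 none.

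The 6 h columns of 1118 probe sets, in 6 blocks, held values that belong to another row. The DMSO arrays correlated at 0.455 over them, at 0.984 with the other order and at 0.992 over the rest. All were left out, 1102 of them named by the rule for members. Of 195 probe sets of members with 1 symbol, 3 lay there (of ITGB2, COL22A1 and ITGA4), and 192 were used. Of 76 symbols in 13 member lists, 4 were not analysed here, ITGB6 among them.

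Values were converted to log2 and compared as 6 differences. Limma 3.58.1 with a trended prior was run in R 4.3.3 on every gene that reached the floor on at least 1 array, and p-values were Benjamini-Hochberg adjusted over those genes. Nothing says that arrays came from separate cultures. Both the size rule and the fit were first tested on simulated data. Members at the floor are given with values and the rest by name. Of each list of other genes the 4 with the largest differences over the size rule were named per comparison. SPP1, EFEMP1, FBN1 and THBS1 go beyond this rule and were named after their values were seen. The members and lists were chosen with earlier results of these data known. Alternatives changed the normalization, floor, offset, probe set, rows, threshold, control and prior. Restoring the order of the rows, and choosing genes by their mean level for a median, were added after seeing the data.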

Additional observations from a re-analysis of the deposited data

Results flagged for a closer look

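For 2 genes over the size rule the vemurafenib difference had opposite signs at the times. COL21A1 differed by -0.0791 at 6 h and by 2.80 at 16 h, and COL9A2 by -0.059 and by 2.15. Each 6 h value compares arrays below the floor, and the difference between the times was not tested.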

How the results depend on the processing

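No paired analysis was possible because each condition had 1 array and so no replicate numbers to pair by; the limma fit is blocked by time, not by replicate. Under vemurafenib at 16 h, 10 members passed the size rule, and 5 did so with a floor of log2 7, with the mean of all probe sets and without shared or cross-hybridizing probe sets, and 16 with a threshold of 1.5-fold. At 6 h 3 passed, against 1 with 32 added to each intensity, 0 with the mean of all probe sets and 5 at 1.5-fold. Over all genes 94 were higher and 195 lower, against 58 and 136, 57 and 129, and 302 and 459. In the combination against DMSO 1 passed, against 0 with the mean of all probe sets, 5 at 1.5-fold and 2 against the average of the DMSO arrays. Over all genes 58 were higher and 175 lower, against 29 and 114, 234 and 385, and 41 and 169. Between the DMSO arrays 0 passed, and 1 with the misaligned rows kept as deposited. Over all genes 17 were higher and 8 lower, against 34 and 45. The limma fit called 1 member, and 0 with a floor of log2 5, no floor, 32 added to each intensity, the mean of all probe sets, without shared or cross-hybridizing probe sets, or a prior without trend. Of the counts under alternatives 71 stayed within 1.5 times, 5 were larger and 12 smaller. Of the differences of single genes over the rule 157 stayed over it under alternatives, 22 did not and 0 changed sign. A floor of log2 5, no floor and the threshold of 1.5-fold could not take a gene off the rule. The settings that changed the misaligned rows left each of these values as it was. Much of the 157 was therefore fixed in advance, and it is no measure of robustness. COL13A1 and COL21A1 have no probe set that is not marked as shared, so that setting gave them no value. For each of these shifts the cause was not tested. Signal over background limits the values: the sizes of the COL13A1, COL6A3, ITGB3, COL21A1, COL9A2 and COL4A5 differences at 16 h rest on levels under log2 6. Among the other genes, so do those of CCN2, ADAMTS3, POSTN and BGN.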
